A study of Drosophila melanogaster with 20 samples.

Results

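The 10 genes described here are grouped as genes for heat shock proteins of the cytosol and their helpers. They were taken by exact gene symbol (Hsp22, Hsp23, Hsp26, Hsp27, Hsp67Bc, Hsp68, Hsp83, Hsc70-4, DnaJ-1 and stv) and all 10 were found in each of the 20 expression tables, among 13972 genes used. Heat shock proteins are chaperones that bind unfolded protein. Small heat shock proteins hold it without using ATP, Hsp70 proteins fold it in ATP-driven cycles that J proteins start and nucleotide exchange factors end, and Hsp90 finishes the folding of kinases and receptors. Heat shock factor, encoded by Hsf, switches on the inducible genes among them when protein damage builds up, whereas the cognate Hsp70 gene Hsc70-4 is active without stress. The group name does not hold for every protein: that of Hsp22, for example, is known to reside in mitochondria.

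The libraries came from female Oregon-R flies labelled WT, a wild-type laboratory strain with no transgene. Every fly group was listed at an age of 5 days with 5 days on its food, which was normal food (ND) or a high sugar diet (HSD), and each of the 4 combinations of tissue and food had 5 libraries, named below as, for example, Brain-ND 1 or Fat body-HSD 5. The comparison of the diets asks what a sugar-rich food given as a model of type 2 diabetes changes in each tissue. How many flies went into a library, and whether libraries came from separate groups of flies, is not given in the sources used here, so the spread that a p-value is set against may be technical. Levels are the authors' RPKM, which are read numbers scaled by gene length and by library depth, and they are quoted as mean ± SD over 5 libraries.

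Reads on genes, recovered from the RPKM steps, ranged from 21.7 to 46.3 M (M, 1e6 reads) in brain and from 5.6 to 40.4 M in fat body, where Fat body-ND 4 was the shallowest. Fat body-ND 4, ND 5 and HSD 4 held 320, 94 and 399 genes with 1 to 3 reads, against 1004 or more in every other library, so low levels in those 3 libraries are less certain. The 7 neuron markers summed to between 1436 and 2059 RPKM in brain and between 1.61 and 9.09 in fat body, and the fat body markers summed to between 43178 and 165636 RPKM in fat body. Fat body markers reached 3910, 10475, 4012 and 2067 RPKM in Brain-ND 4, Brain-ND 5, Brain-HSD 4 and Brain-HSD 5, against 593 to 849 in the other 6 brain libraries. Markers of ovary and eggshell, 15 genes, summed to between 32.5 and 12661 RPKM across fat body libraries and to at most 9.89 in brain. In bulk tissue, fewer cells of a type and less RNA per cell cannot be told apart.

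The cognate Hsp70 gene and the Hsp90 gene held the top 2 places in all 4 groups. Hsc70-4 averaged 544 ± 87.5 RPKM in Brain-ND, 495 ± 63.9 in Brain-HSD, 1366 ± 247 in Fat body-ND and 2148 ± 410 in Fat body-HSD. Hsp83, the fly Hsp90 gene, averaged 450 ± 130, 412 ± 96.6, 659 ± 367 and 1010 ± 214 RPKM in the same order. Together they took between 85.6% and 96.4% of the reads on the 10 genes in a library. In both brain groups the order below them was DnaJ-1, Hsp23, stv, Hsp67Bc, Hsp26, Hsp68, Hsp27 and Hsp22. Among neighbours in the Brain-ND order, the ranges of Hsc70-4 and Hsp83, of DnaJ-1 and Hsp23, and of Hsp26, Hsp68, Hsp27 and Hsp22, each with the next, overlapped. In the fat body Hsp26 came next after Hsp83 on both diets, Hsp67Bc ranked last, and most neighbours between them overlapped. All 10 genes together took 0.24% to 0.405% of reads in brain and 0.39% to 1.1% in fat body.

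**Figure D1:**
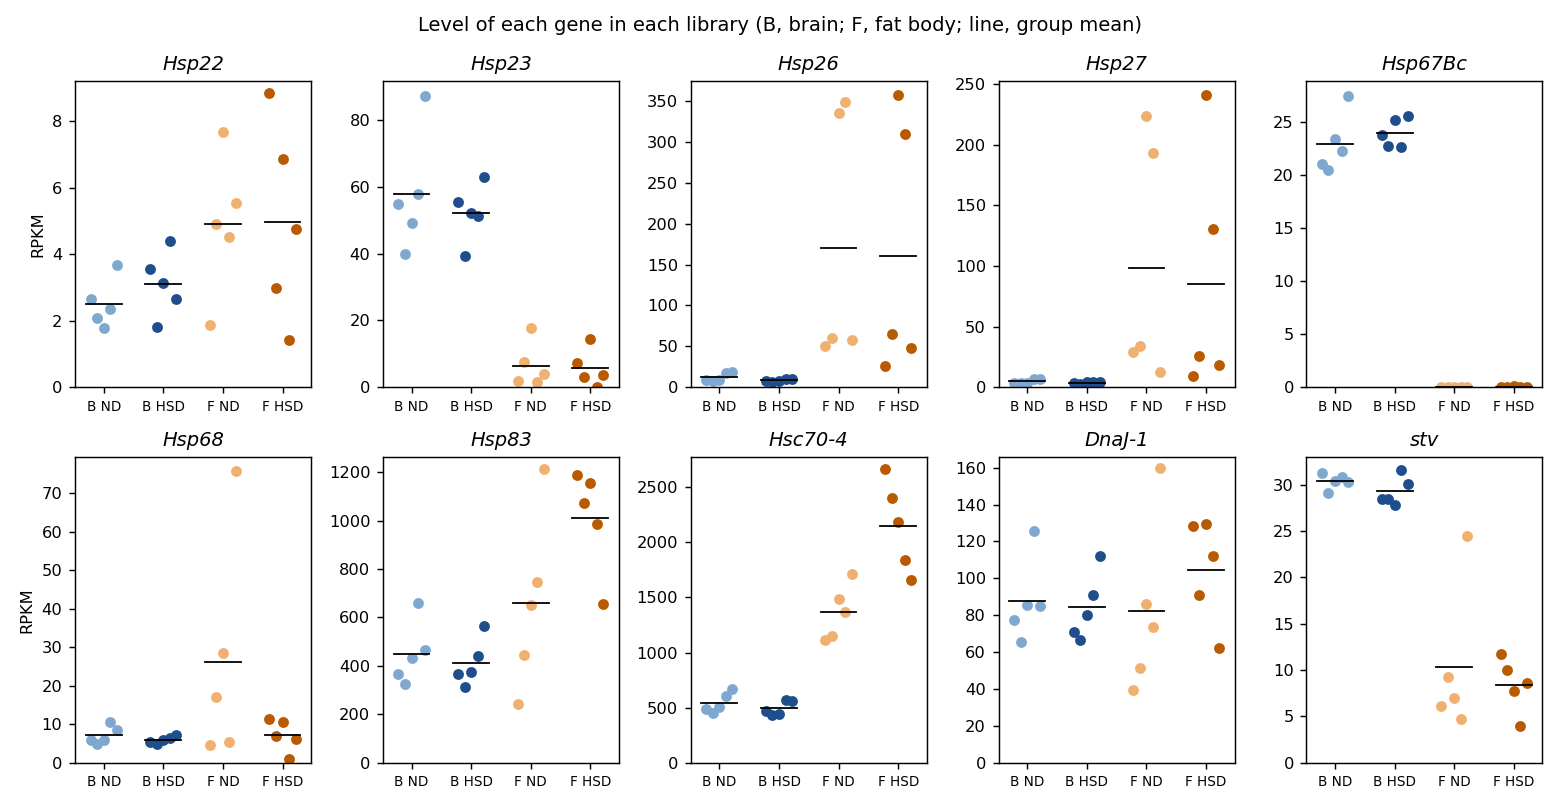
RPKM (linear axis from 0, a separate scale for each gene) of the 10 genes in the 20 libraries, with libraries 1 to 5 from left to right in each group and a line at the group mean. Hsp23, Hsp67Bc and stv lay higher in brain, Hsp26, Hsp27 and Hsc70-4 lay higher in fat body, and within the fat body Hsp26 and Hsp27 were high in libraries 3 and 4 of both diets.

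Hsp26 and Hsp27 encode small heat shock proteins that are known to be made under heat and also, without heat, in the ovary. Both were far more abundant in fat body than in brain. Hsp26 stood at 8.61, 7.69, 8.43, 16.9 and 18.2 RPKM in Brain-ND and at 50.4, 59.96, 335, 349 and 57.2 in Fat body-ND. On the high sugar diet its levels were 8.05, 6.39, 7.32, 10.3 and 10.5 RPKM in brain and 25.4, 64.6, 357, 310.1 and 47.9 in fat body. The lowest fat body library lay above the highest brain library, while libraries 3 and 4 of fat body stood several-fold above the other fat body libraries on each diet. The fat body mean was 14.2-fold the brain mean on normal food and 18.9-fold on high sugar, and the differences on the log2(RPKM + 1) scale were 3.25 ± 0.59 (SE, adjusted p = 0.000426) and 3.40 ± 0.67 (adjusted p = 0.000777) by limma with Benjamini-Hochberg adjustment. Hsp27 followed the same layout, at 3.62, 3.10, 3.04, 6.47 and 6.94 RPKM in Brain-ND and 28.6, 34.0, 224, 193 and 12.2 in Fat body-ND. Its Fat body-HSD libraries held 8.98, 25.3, 241, 130.2 and 18.3 RPKM against 2.94 to 4.21 in Brain-HSD. The annotation places a noncoding RNA over Hsp27. No fat body library on either diet fell within the brain range, and the log2 differences were 3.40 ± 0.72 (limma, adjusted p = 0.00123) and 3.25 ± 0.77 (limma, adjusted p = 0.00266).

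Within the fat body, Hsp26 and Hsp27 differed far more between libraries of one food than between the means of the foods, which were 170 and 161 RPKM for Hsp26 and 98.3 and 84.7 for Hsp27. With fat body libraries 3 and 4 of both diets left out, a setting chosen after seeing the data, the tissue difference of Hsp26 fell from 3.25 to 2.22 on normal food and from 3.40 to 2.23 in HSD, and that of Hsp27 came to 2.15 and 1.90, with every adjusted p by limma under the threshold of 0.05. Over all alternative settings, the adjusted p of Hsp26 ranged from 2.78e-05 to 0.0415 on normal food and from 7.24e-05 to 0.0542 on high sugar, and that of Hsp27 from 0.000195 to 0.137 and from 0.000187 to 0.0629. Within libraries 4 and 5 alone, Hsp26 on high sugar and Hsp27 on both diets missed the threshold. Having both library 3 and library 4 above the other libraries of the same food, on both foods, was common, since 21.5% of the 8223 genes tested in fat body had it, and it was seen in 2 of the 9 genes of the set that could be tested, Hsp26 and Hsp27. It was also seen in 3 of the 15 ovary and eggshell markers, nos, vas and otu. The other 12 markers, which include the germ line genes osk, aub and bam as well as the eggshell genes, did not have it. The germ line gene vas had 9.28, 11.3, 45.5, 25.3 and 15.2 RPKM in Fat body-ND and 0.987, 27.9, 32.4, 29.2 and 11.7 in Fat body-HSD. Levels of the germ line gene osk were 92.6, 96.0, 102, 101 and 101 RPKM in Fat body-ND and 3.08, 256, 98.6, 163 and 67.1 in Fat body-HSD. For the eggshell gene Cp36 they were 141, 102, 8.69, 610 and 13.5 RPKM in Fat body-ND and 0.879, 0.545, 30.8, 20.7 and 150 in Fat body-HSD. The part of ovary RNA in the fat body level of Hsp26 and Hsp27 was not tested. Fat body-HSD 1 held the lowest ovary and eggshell sum, 32.5 RPKM, with vas at 0.987, and was also the lowest of the 10 fat body libraries for Hsp26 (25.4 RPKM) and Hsp27 (8.98). The sum and Hsp26 did not run together throughout. Fat body-ND 4 had the highest sum, 12661 RPKM, with Hsp26 at 349. Fat body-ND 1 had a sum of 6760 with Hsp26 at 50.4. Fat body-ND 3 and Fat body-HSD 3 had sums of only 352 and 314 with Hsp26 at 335 and 357.

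**Figure D2:**
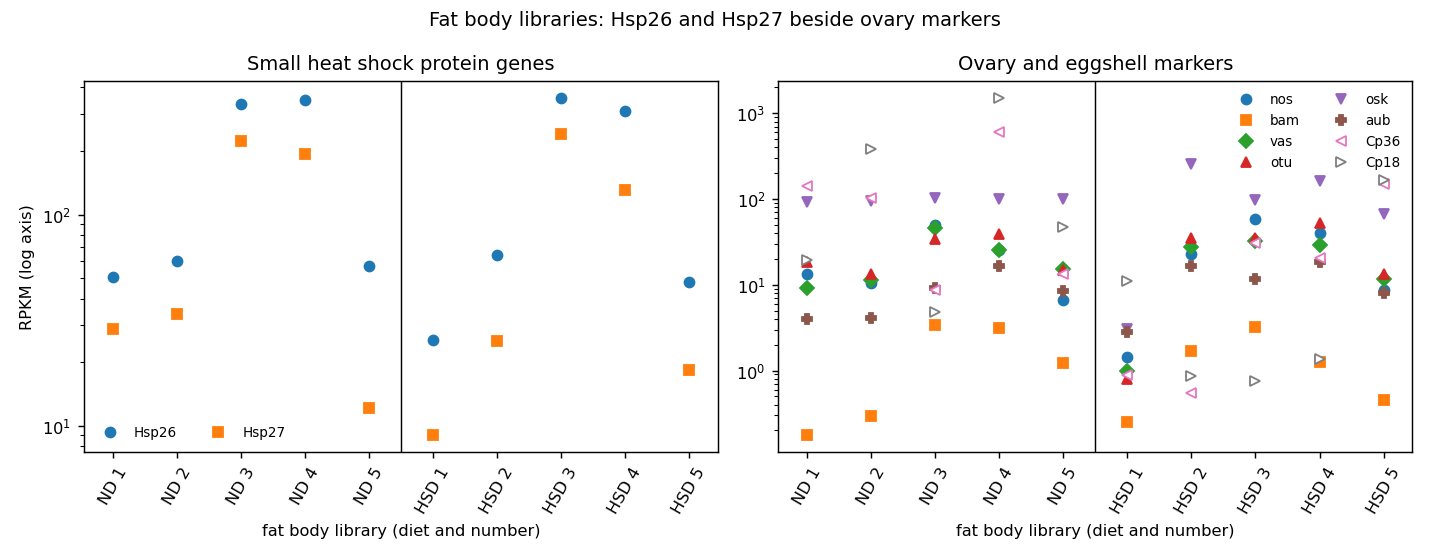
RPKM (log axis) of Hsp26 and Hsp27 (left) and of 8 of the 15 ovary and eggshell markers (right) in the 10 fat body libraries, with filled symbols for germ line genes and open symbols for the eggshell genes Cp36 and Cp18. Hsp26 ran from 25.4 to 357 RPKM and was highest in libraries 3 and 4 of both diets, as were nos, vas and otu, while osk, aub, bam, Cp36 and Cp18 were not highest in both of these libraries on both diets.

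Hsp23 and Hsp67Bc, also small heat shock protein genes, went the other way and were higher in brain. Hsp23 stood at 55.0, 40.0, 49.3, 57.9 and 87.4 RPKM in Brain-ND and at 1.86, 7.54, 17.8, 1.41 and 3.80 in Fat body-ND. On high sugar it stood at 55.6, 39.3, 52.2, 51.4 and 63.1 in brain and at 7.23, 3.16, 14.6, 0.102 and 3.57 in fat body. The tissues did not overlap on either diet, the brain mean was 8.94-fold and 9.14-fold the fat body mean, and the log2 differences were -3.36 ± 0.50 (limma, adjusted p = 8.8e-05) and -3.44 ± 0.57 (limma, adjusted p = 0.000217). Hsp67Bc, whose product is known to work with the stv protein in clearing damaged protein, was the most tissue-bound of the set. It measured 21.0, 20.5, 23.4, 22.3 and 27.5 RPKM in Brain-ND and 23.8, 22.7, 25.2, 22.7 and 25.5 in Brain-HSD. In fat body it had 1 read in Fat body-ND 1 (0.0513 RPKM), 1 read in Fat body-HSD 3 (0.0621 RPKM) and none in the other 8 libraries. Over pooled reads, scaled by depth, brain exceeded fat body 2670-fold on normal food (exact 95% interval 479 to 105489) and 1816-fold on high sugar (326 to 71765), intervals that cover counting error only. The limma differences on the log2(RPKM + 1) scale, -4.56 ± 0.12 (adjusted p = 2.78e-11) and -4.62 ± 0.11 (adjusted p = 1.48e-11), understate this because the level in fat body is near 0.

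Hsp22 was the least abundant of the set in brain, with 2.66, 2.08, 1.77, 2.35 and 3.67 RPKM in Brain-ND and 3.56, 1.82, 3.12, 4.39 and 2.64 in Brain-HSD. Fat body held 1.86, 4.91, 7.67, 4.51 and 5.53 RPKM on normal food and 8.83, 2.99, 6.87, 1.42 and 4.76 on high sugar, so the tissues overlapped on both diets. The tissue difference of 0.69 ± 0.27 on normal food passed (limma, adjusted p = 0.04), and that of 0.41 ± 0.36 on high sugar did not (limma, adjusted p = 0.318). The call on normal food is not firm: it was kept in 5 of the 20 alternative settings, with adjusted p between 0.000595 and 0.232. It was lost when Brain-ND 1, 2, 3 or 4 or Fat body-ND 2, 3, 4 or 5 was left out, with values of 0.53 to 0.71, and kept without Brain-ND 5 or Fat body-ND 1. Reads of Hsp22 cannot be told from those of Hsp67Bb, a gene that overlaps it in the annotation, because both had the same number of reads in 17 of 20 libraries and differed by at most 1 read in the others.

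In the annotation of the current fly assembly (Release 6, used here for names and neighbours only) Hsp67Bc, CG4456 (Hsp67Bb), Hsp22, CG4461, Hsp26, Hsp67Ba, Hsp23 and Hsp27 follow one another with no other coding gene between them. The tissue with the higher mean was not the same along this run. It was brain for Hsp67Bc, fat body for the next 4 genes (Hsp67Bb, Hsp22, CG4461 and Hsp26), brain for Hsp67Ba and Hsp23, and fat body for Hsp27. Hsp67Bb and Hsp22 are not separate observations, since their reads cannot be told apart. Both overlapped between the tissues on both diets, and the Hsp22 difference did not pass on high sugar and was not firm on normal food. CG4461 averaged 4.22 RPKM in Fat body-ND and 0.232 in Brain-ND, whereas Hsp67Ba averaged 39.0 RPKM in Brain-ND and 0.629 in Fat body-ND, next to Hsp26 on one side and Hsp23 on the other. Among the 6 other small heat shock protein genes listed, 5 were tested between tissues, of which CG4461 and l(2)efl were higher in fat body and Hsp67Ba was higher in brain on both diets by limma. HspB8 differed by -0.19 and 0.08 (limma, adjusted p = 0.393 and 0.573), with 74.1 RPKM in Brain-ND and 65.2 in Fat body-ND.

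Hsc70-4 was higher in every fat body library than in every brain library. Its brain levels were 491, 454, 504, 603 and 665 RPKM on normal food and 474, 433, 443, 566 and 560 on high sugar. Its fat body levels were 1117, 1147, 1487, 1365 and 1711 RPKM on normal food and 2664, 2404, 2180, 1838 and 1655 on high sugar. That is 2.51-fold the brain mean on normal food and 4.34-fold on high sugar, with log2 differences of 1.32 ± 0.15 (limma, adjusted p = 1.16e-05) and 2.10 ± 0.14 (limma, adjusted p = 1.2e-07), and the call was kept in all 20 alternative settings on each diet. Hsp83 was also higher in fat body on high sugar, at 1187, 1072, 1153, 985 and 654 RPKM against 366, 314, 373, 443 and 564 in brain, a difference of 1.29 ± 0.19 (limma, adjusted p = 0.000106). On normal food its fat body libraries spanned 241, 443, 650, 745 and 1215 RPKM across a brain range of 324 to 661, and the difference was 0.40 ± 0.38 (limma, adjusted p = 0.355). The interaction that compares the 2 tissue differences, 0.90 ± 0.45, did not pass (limma, adjusted p = 0.779). Hsp83 overlaps the gene CG14966 in the annotation, and the use of strand in counting is not given in the sources used here.

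Hsp68, an Hsp70 gene that heat induces, was low and even in brain and erratic in fat body. It had 4.97 to 10.5 RPKM over the 10 brain libraries, 4.66, 17.0, 28.6, 5.29 and 75.7 in Fat body-ND and 11.4, 7.07, 10.5, 0.927 and 6.27 in Fat body-HSD. Its tissue differences of 1.11 ± 0.63 on normal food and 0.00 ± 0.44 on high sugar did not pass (limma, adjusted p = 0.134 and 0.999). The annotation places CG6000 and a noncoding RNA over Hsp68. The classic heat-inducible Hsp70 genes were nearly silent: Hsp70Ab stayed at or below 0.173 RPKM and Hsp70Ba at or below 0.0225 in all 20 libraries, and Hsp70Bc reached 1.56 RPKM in brain (Brain-ND 4) and 2.45 in fat body (Fat body-ND 5). These copies are nearly identical, so reads that map to a single place undercount them, and 3 further copies with ambiguous symbols were not used.

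The cochaperones split. DnaJ-1, the J protein (Hsp40) that delivers substrate to Hsp70, was not separated between the tissues, at 77.6, 65.3, 85.6, 125.6 and 85.1 RPKM in Brain-ND and 39.4, 51.3, 86.3, 73.5 and 159.9 in Fat body-ND. On high sugar it had 71.0, 66.5, 80.2, 91.2 and 112 in brain and 129, 91.0, 129.7, 112 and 62.4 in fat body. The tissue differences were -0.23 ± 0.33 (95% interval -0.96 to 0.50) and 0.29 ± 0.22 (95% interval -0.19 to 0.76), neither of which passed by limma (adjusted p = 0.541 and 0.247), and the first turned to 0.21 when libraries were rescaled by the median ratio. By contrast stv, a BAG family nucleotide exchange factor of Hsp70 known for its part in muscle maintenance, was the steadiest gene of the set in brain, at 31.2, 29.1, 30.4, 30.8 and 30.3 RPKM in Brain-ND and 28.5, 28.4, 27.9, 31.6 and 30.02 in Brain-HSD. Its fat body levels were 6.13, 9.21, 7.03, 4.73 and 24.4 RPKM on normal food and 11.7, 10.1, 7.78, 3.97 and 8.58 on high sugar. No fat body library reached the brain range, and the differences were -1.70 ± 0.33 (limma, adjusted p = 0.000747) and -1.75 ± 0.22 (limma, adjusted p = 2.47e-05).

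**Figure D3:**
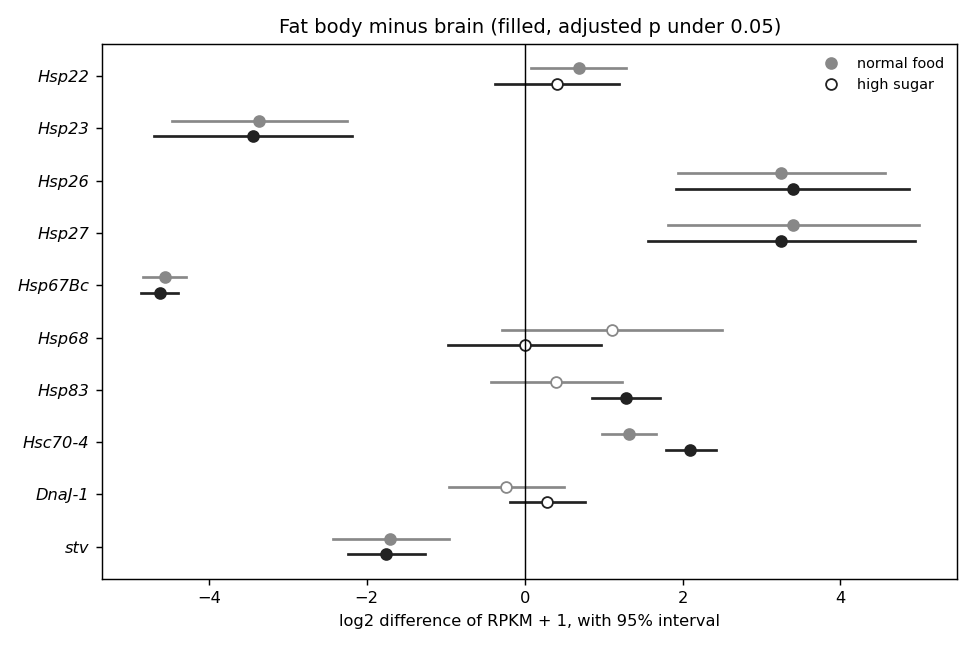
Fat body minus brain difference of log2(RPKM + 1) for each gene with its 95% interval, on normal food (grey) and high sugar (black), with filled points where the limma adjusted p was under 0.05. Hsp26, Hsp27 and Hsc70-4 lie to the right of 0 and Hsp23, Hsp67Bc and stv to the left on both diets, while Hsp68 and DnaJ-1 have open points on both.

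In all, 7 of the 10 genes differed between tissues on normal food, against a background of 74.8% of the 9219 genes tested, and 7 of 10 on high sugar, against 74.4% of 9315. The 10 genes therefore differed between tissues about as often as genes in general. By direction, 4 were higher in fat body on normal food (background 23.2%) and 3 lower (51.6%), and on high sugar 4 were higher (27.2%) and 3 lower (47.3%). Groups did not overlap for 6 genes on normal food (background 63.8%) and 7 on high sugar (64.6%). The median difference over the 10 genes came to 0.54 for ND and 0.35 for HSD, beside -0.61 and -0.40 over all genes tested. These counts depend on scaling, and a single yolk protein gene, Yp1, stood at 20865 to 78411 RPKM in fat body libraries against 118 to 4017 in brain. Rescaling by the median ratio moved the median of all genes to -0.21 and -0.16 and the split of calls from 2140 higher and 4756 lower to 2961 and 3950 on normal food, and from 2531 and 4403 to 3083 and 3925 on high sugar. Under that scaling 9 of the 10 genes were called on normal food, Hsp68 at 1.51 and Hsp83 at 0.85 being added, and 8 on high sugar, with DnaJ-1 added at 0.55.

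Other genes of the chaperone system were read beside these from lists, and 39 of the 50 listed genes could be tested between tissues, 15 of them higher in fat body and 9 lower on normal food, and 22 higher and 8 lower on high sugar. All 8 subunits of the cytosolic chaperonin, which folds actin and tubulin, were higher in fat body on both diets, with medians of 1.13 and 1.65. Among them Cct5 differed by 1.53 ± 0.28 and 2.28 ± 0.19 (limma, adjusted p = 0.000412 and 7.62e-07). Of 11 cochaperones of Hsp90 and Hsp70 tested, 3 were higher and 2 lower on normal food and 7 were higher and 1 lower on high sugar. Hop, which links Hsp70 to Hsp90, differed by 0.92 ± 0.28 and 1.56 ± 0.15 (limma, adjusted p = 0.0106 and 2.81e-06), and CHIP, a ubiquitin ligase that acts on chaperone clients, by -1.52 ± 0.16 on normal food (limma, adjusted p = 4.57e-06). Of 6 J protein genes tested, 3 were lower in fat body on both diets, among them Csp, the cysteine string protein of synapses, at 161 RPKM in Brain-ND and 23.8 in Fat body-ND, and CG10565 was higher on high sugar. The Hsp110 gene Hsc70Cb, an exchange factor, and Hsc70-2 were higher in fat body on both diets. Of 6 mitochondrial chaperone genes tested, Hsp60 and Trap1 were lower on both diets, and Hsc70-5 and l(2)tid were higher on high sugar. Hsf itself was lower in fat body, at 19.9 ± 7.71 RPKM against 39.7 ± 1.29 on normal food (-1.03 ± 0.21, limma, adjusted p = 0.00104) and 24.9 ± 12.6 against 40.5 ± 1.91 on high sugar (-0.81 ± 0.28, limma, adjusted p = 0.0201). Its fat body levels were also highest in library 3 (31.4 on normal food, 34.8 on high sugar) and library 4 (24.2 and 41.8).

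In the fat body, the mean of 3 genes, Hsc70-4, Hsp83 and DnaJ-1, was higher after 5 days on sugar and that of Hsp68 was lower, but no difference passed the test across all genes, and 6 of the 9 genes tested had a log2 difference below 0. Hsc70-4 averaged 1.57-fold higher on high sugar and was higher in 4 of the 5 same-numbered pairs, the exception being library 5, at 1711 RPKM on normal food and 1655 on high sugar. The log2 difference was 0.65 ± 0.16 with a 95% interval of 0.30 to 1.00 (limma, unadjusted p = 0.00163, adjusted p = 0.248). Hsp83 averaged 1.53-fold higher, also in 4 of 5 pairs, at 0.78 ± 0.35 (limma, unadjusted p = 0.0476, adjusted p = 0.519). DnaJ-1 averaged 1.28-fold higher, at 0.47 ± 0.34 (limma, adjusted p = 0.67). For Hsc70-4, Hsp83 and DnaJ-1 alike, libraries 1 to 4 stood higher on high sugar than the library of the same number on normal food, and library 5 stood lower. The summed level of the 4 oenocyte markers, none of them at 0, had the same layout, at 9014, 9004, 7464, 7891 and 11258 RPKM in Fat body-ND and 22708, 15527, 14105, 11105 and 9906 in Fat body-HSD. Muscle markers shared it, with sums of 458, 327, 248, 325 and 587 RPKM in Fat body-ND. In Fat body-HSD their sums were 614, 597, 361, 414 and 444 RPKM. Hemocyte markers shared it too. Fat body markers and ovary and eggshell markers had the reverse layout. The share of all genes with either layout was not counted. Within Fat body-HSD the order of the oenocyte sum over libraries was also that of Hsc70-4, but within Fat body-ND it was not. There libraries 3 and 4 had the lowest oenocyte sums, with Hsc70-4 at 1487 and 1365 RPKM, against 1117 and 1147 in libraries 1 and 2. The part of RNA from any of these cell types in the differences was not tested.

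Fat body-ND 5 moved several of these values. It was the highest of all 10 fat body libraries for 4 genes, Hsp68, Hsp83, DnaJ-1 and stv, and the highest on normal food for Hsc70-4, and it also held the most Hsp70Bc (2.45 RPKM against at most 0.329 in the other fat body libraries) and Hsromega, a noncoding RNA of heat stress (10.2 against at most 6.58). Among other heat shock genes some were raised there and some were not. Hsc70Cb stood at 122 RPKM, against at most 116 in the other fat body libraries. HspB8 stood at 81.4, against at most 74.0 in the other Fat body-ND libraries. Hsp27 had its lowest Fat body-ND level in that library, 12.2 RPKM, and Hsp26 stood at 57.2. The level of l(2)efl was 21.5 RPKM, against 40.6, 29.3 and 25.2 in Fat body-ND 1 to 3. The share of all genes highest in Fat body-ND 5 was not counted. Without Fat body-ND 5 the diet difference of Hsp68 went from -1.30 to -0.76, and that of Hsp83 from 0.78 to 1.05. That of DnaJ-1 went from 0.47 to 0.75 and that of stv from -0.11 to 0.24. For Hsc70-4 it went from 0.65 to 0.74. Within libraries 1 to 3, Hsc70-4 differed by 0.96, Hsp83 by 1.46, DnaJ-1 by 1.03 and Hsp68 by -0.46, and within libraries 4 and 5 by 0.19, -0.24, -0.37 and -2.55. Over all 20 alternative settings the adjusted p of Hsc70-4 by limma stayed between 0.0603 and 1.0 and that of Hsp83 between 0.0991 and 1.0.

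Of the 9 genes tested for diet in fat body, Hsp67Bc being below the filter of a mean of 1 RPKM, 0 were called, as were 0 of all 8223 genes (0.0%). At an unadjusted p under 0.05 limma gave 2 of the 9 and 785 of all genes (9.55%), and limma with voom weights on the recovered reads gave 1 and 289, also with 0 called after adjustment. Groups not overlapping between diets were found for 0 of the 9, against 1.91% of all genes. The median over the 9 genes was -0.11, with 3 above 0 and 6 below, beside 0.19 over all genes. Rescaling by the median ratio took that 0.19 to -0.01 and gave 0.42 ± 0.19 for Hsc70-4, 0.55 for Hsp83 and -1.48 for Hsp68. Under that scaling 0 of the 9 genes, and 341 of all, had an unadjusted p under 0.05. The fat body markers, which include the yolk protein genes, summed to between 70033 and 165636 RPKM on normal food and between 43178 and 93711 on high sugar, and their part in the diet differences was not tested. The small heat shock protein genes had wide intervals, such as -2.01 to 1.53 for Hsp26 and -2.51 to 1.75 for Hsp27. With the library number as a block the differences of -0.24 and -0.38 were the same and their SE went from 0.81 to 0.17 for Hsp26 and from 0.98 to 0.28 for Hsp27, and neither passed (limma, adjusted p = 0.513 and 0.517, over all alternatives 0.513 to 1.0 and 0.517 to 1.0).

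**Figure D4:**
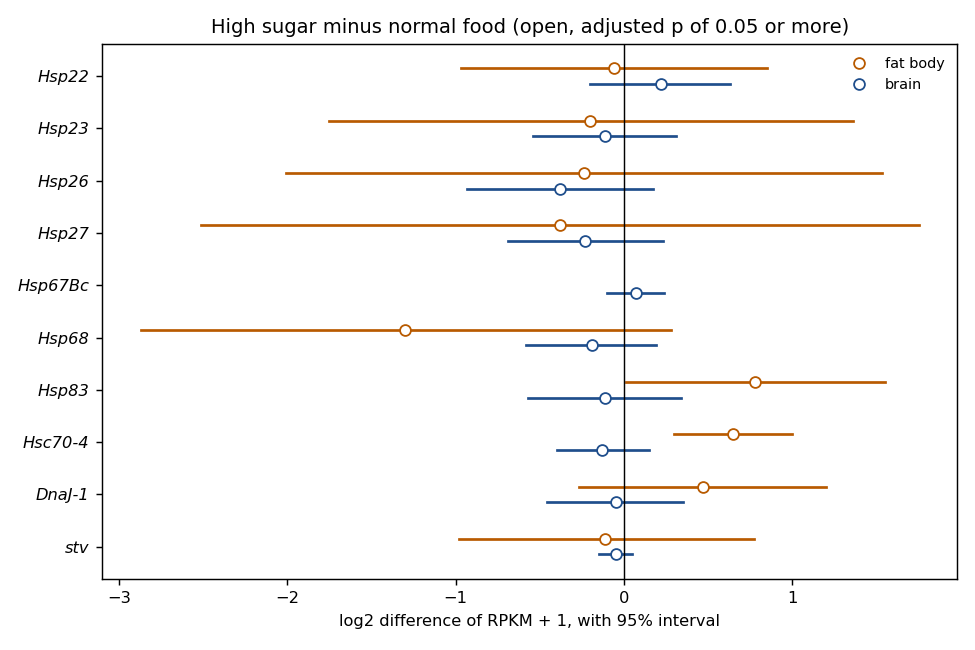
High sugar minus normal food difference of log2(RPKM + 1) with its 95% interval in fat body (orange) and brain (blue), with open points because no limma adjusted p was under 0.05. Before adjustment, the intervals of Hsc70-4 (0.30 to 1.00) and Hsp83 (0.01 to 1.55) in fat body are clear of 0, which for neither gene held after median-ratio rescaling, Hsp67Bc in fat body was not tested, and the brain intervals are narrower than those of fat body.

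In the brain no gene of the set was called between diets, and the differences were small. They ran from -0.38 ± 0.25 for Hsp26 to 0.22 ± 0.19 for Hsp22 (limma, adjusted p = 1.0 for each of the 10 genes). None of 8910 genes passed in this comparison (0.0%), and at an unadjusted p under 0.05 limma gave 0 of the 10 and 79 of all (0.887%), with 0 and 78 by voom. The groups did not separate for any of the 10, against 0.157% of all genes. Hsp26, Hsp68 and Hsc70-4 were lower on high sugar in 5 of 5 same-numbered pairs. Their mean differences were 0.38, 0.19 and 0.13 in log2 units, for a background median of 0.02. How many of all 8910 genes were lower in 5 of 5 pairs was not counted, so this layout has no background here. The interval was tight for stv, -0.15 to 0.05, and for Hsp67Bc, -0.10 to 0.24, and wider for Hsp83, -0.57 to 0.34.

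Brain libraries 4 and 5 stood out in the level of several genes. Of the 10 genes, 8 had their highest brain level in Brain-ND 4 or Brain-ND 5, and the other 2, Hsp22 and stv, had it in Brain-HSD 4. The share of all genes with their highest brain level in these libraries was not counted. For 4 genes, Hsp26, Hsp68, Hsp83 and Hsc70-4, libraries 4 and 5 were the highest of their diet on both diets, a layout seen in 15.1% of the 8910 genes tested in brain. All 8 fat body markers and all 6 muscle markers that were tested in brain had the same layout, and their part in the levels of the 4 genes was not tested. Without Brain-ND 5 the diet difference of Hsp26 was -0.22, and without Brain-ND 4 those of Hsp68 and Hsp83 were -0.06 and 0.03.

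The diet effect was not shown to differ between the tissues for any of the 10 genes. The interaction, fat body diet difference minus brain diet difference, was called for 0 of the 10 and 0 of 9280 genes (0.0%), with 1 of the 10 and 598 of all (6.44%) at an unadjusted p under 0.05 by limma and 1 and 283 by voom. That 1 gene was Hsc70-4, at 0.78 ± 0.21 (limma, unadjusted p = 0.0016, adjusted p = 0.772), followed by Hsp83 at 0.90 ± 0.45. Within libraries 1 to 3 the Hsc70-4 interaction was 1.06 and passed (limma, adjusted p = 0.0114), and within libraries 4 and 5 it was 0.36. Over its 30 alternative settings the adjusted p ran from 0.0114 to 1.0, and it passed in 1. No gene of the chaperone lists was called for diet in either tissue or for the interaction. The smallest unadjusted p of the cochaperone list in fat body was that of FKBP59, an Hsp90-binding immunophilin, at 0.53 ± 0.17 (limma, adjusted p = 0.373). The chaperonin subunits had a median diet difference of 0.47 in fat body and -0.08 in brain, beside 0.19 and 0.02 over all genes tested.

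**Figure D5:**
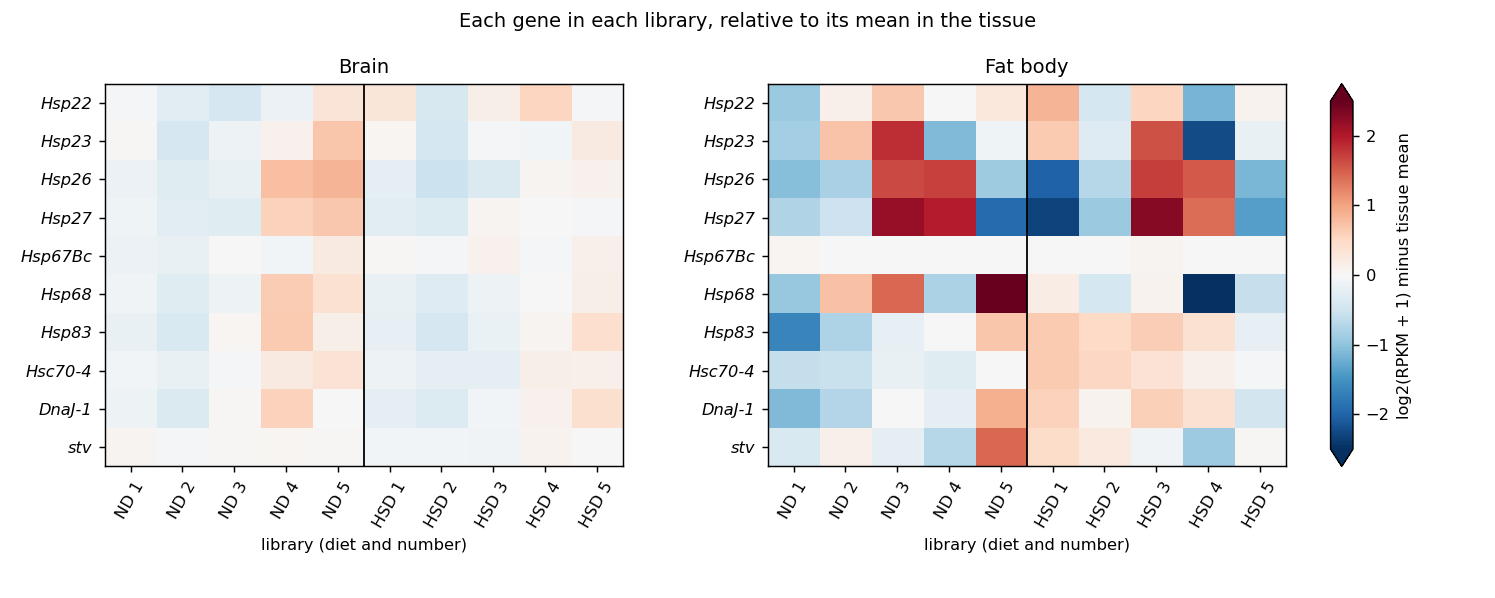
Each gene's log2(RPKM + 1) in each library minus its mean over the 10 libraries of that tissue (red above, blue below, colour scale clipped at 2.5 either way), with a line between the diets. The fat body varied more than the brain, with Hsp26 and Hsp27 high in libraries 3 and 4 and Hsp68, at 75.7 RPKM, and stv, at 24.4, high in Fat body-ND 5.

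The 10 genes did not move as a block. Likeness was measured as the root mean square difference between gene-centred log2(RPKM + 1) profiles over all 20 libraries among 9279 genes, where a small value means a close match. Hsp26 and Hsp27 lay 0.35 apart, each among the 4 nearest genes of the other, and both shared Cyp6a19, borr and Incenp as their nearest genes from outside the set, at 0.32 to 0.41. Their ratio of RPKM, Hsp26 over Hsp27, was 1.48 to 2.82 in 19 libraries and 4.70 in Fat body-ND 5. Hsp83 was nearest to CG1416 (0.31), Hsc70Cb (0.32) and Hop (0.35), all 3 from the chaperone lists, and DnaJ-1 had the J protein gene Droj2 (0.30) between CG7048 (0.29) and Mtr3 (0.31). Hsc70-4 was nearest to Karybeta3 (0.14), pix and CG8331 (0.15 each), and its nearest gene within the set, Hsp83, ranked 795. Hsp67Bc was nearest to CG12817 (0.09), CG8916 (0.11) and CG16854 (0.12), and stv to CG12003 (0.20), CG14855 (0.22) and l(2)41Ab (0.24). Hsp23 and Hsp68 had no close match, with nearest genes CG18428 at 0.54 and CG42241 at 0.72. Hsp22 matched Hsp67Bb at 0.01, from shared reads, and after it CG7429 (0.29) and CG8111 (0.34). These profiles mix the tissue difference with the spread between libraries, and the points share libraries and scaling.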

How the data were processed

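Poly(A) RNA from brain and fat body was sequenced on an Illumina instrument, and uniquely mapped reads were expressed as RPKM by the authors, per the labels' protocols. TopHat and the dm3 assembly are named in the submitters' processing notes, and the counting tool and its use of strand are not given in the sources used here. The deposited RPKM tables (15080 entries each) were joined by symbol. The 188 symbols naming several entries were left out. Reads were recovered from the RPKM steps, with one total for each library and one length for each gene (12770 genes, 99.28% of values above 0 whole within 0.01 read), and served for depth, zero counts and one alternative fit. The value of 3 reads on 1 kb was 0.065 to 0.138 RPKM in brain and 0.074 to 0.536 in fat body.

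Tests used limma 3.58.1 in R 4.3.3 with an intensity trend on log2(RPKM + 1), for genes with a mean of at least 1 RPKM, fitted over all genes for each of 5 comparisons (diet in each tissue, tissue on each diet, and their interaction) and adjusted by Benjamini and Hochberg (threshold 0.05). A fold change on that scale understates the change of low genes. The fitting code was tried on simulated data with independent noise and planted shifts, which do not copy the variation shared between genes within a library. Alternatives were a pseudocount of 0.1, no filter, median-ratio rescaling, voom on recovered reads, the library number as a block, a term for libraries 4 and 5, subsets of libraries, and each library left out.

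Labels number the libraries 1 to 5 in each group without saying what a number shares. Same-numbered libraries deviated together between diets (correlations of 0.30 to 0.66 in brain and 0.13 to 0.65 in fat body). Pairs by number were therefore described for the diets, and the number served as a block in an alternative fit. The main fits, with their SE, intervals and p-values, used no pairing. A library correlated best with its own number in only 4 of 10 cases in brain and 5 of 10 in fat body.

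The 10 genes and the gene lists were chosen with earlier results of these data known. Besides the 10, genes named are Hsf, the up to 4 with the smallest p of each list and comparison, the 3 nearest in profile, and marker or overlapping genes named after their values were seen. Gene names and neighbours come from the BDGP6 annotation, whose coordinates were not used.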

Additional observations from a re-analysis of the deposited data

Results flagged for a closer look

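Among 40 groups of 5 libraries (10 genes in 4 groups), 3 held a library whose gap to its nearest neighbour exceeded 0.71 of the group's range. For normally spread values chance gives about 1 in 20. The level of stv in Fat body-ND 5 was 24.4 RPKM against 4.73 to 9.21 in the other Fat body-ND libraries. Hsp67Bc stood at 0.0513 RPKM in Fat body-ND 1 and at 0.0621 RPKM in Fat body-HSD 3, a single read in each case in groups otherwise at 0. In such a group the gap is the whole range, so any lone read is flagged and the rate above does not apply.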

How the results depend on the processing

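The tissue calls of Hsp23, Hsp67Bc and Hsc70-4 held in all alternatives tried on both diets, and those of Hsp26, Hsp27, Hsp83 on high sugar and stv held in all but, on at least 1 diet, libraries 4 and 5 alone, where 4 of the 10 genes passed on each diet and 4277 and 4613 genes overall. That subset has fewer libraries. No diet difference of the 10 genes passed under any alternative. Within libraries 1 to 3, 16 genes passed for diet in fat body and 277 for the interaction, 1 of them among the 10 (Hsc70-4), and without Fat body-ND 4, ND 5 and HSD 4, a choice made after seeing the data, 23 passed for the interaction. Leaving out 1 library gave 0 to 19 genes for diet in fat body (19 without Fat body-HSD 5), 6538 to 7263 between tissues on normal food with 6 to 9 of the 10, and 6550 to 7251 on high sugar with 7 to 9.

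With the library number as a block, 0 genes passed for diet in either tissue or for the interaction, and 6787 and 6692 passed between tissues, with 6 and 7 of the 10. The block ended the call of Hsp22 on normal food (0.69, limma adjusted p = 0.0615, over all alternatives 0.000595 to 0.232) and changed no other call among the 10. Between tissues same-numbered libraries did not deviate together (correlations -0.23 to 0.15), and a library correlated best with its own number in 1 of 10 cases on normal food and 3 of 10 on high sugar.

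Signs that turned all belonged to differences that had not passed, and the cause was not tested. For diet in fat body these were, within libraries 1 to 3, Hsp22 0.36, Hsp23 0.07 and stv 0.36, within libraries 4 and 5, Hsp83 -0.24 and DnaJ-1 -0.37, without Fat body-ND 4, ND 5 and HSD 4, Hsp22 0.30 and stv 0.32, and without fat body libraries 3 and 4, Hsp22 0.34 and Hsp23 0.14. For diet in brain they were Hsp23 0.02 and Hsp27 0.05 within libraries 1 to 3 and Hsp67Bc -0.04 and stv 0.01 within libraries 4 and 5. Between tissues on normal food DnaJ-1 turned to 0.21 with rescaling, 0.25 with voom and 0.07 in libraries 4 and 5, and Hsp83 to -0.09 without the 3 libraries named above. On high sugar Hsp68 turned to -0.10 with a pseudocount of 0.1, and in libraries 4 and 5 Hsp68 was -1.06, Hsp22 -0.25 and DnaJ-1 -0.27. The interaction of Hsp83 was -0.09 in libraries 4 and 5. With 1 library left out, the diet difference in fat body ran from -0.30 to 0.23 for Hsp22, -0.62 to 0.34 for Hsp23, -0.70 to 0.24 for Hsp26, -0.99 to 0.16 for Hsp27 and -0.30 to 0.24 for stv, that in brain from -0.23 to 0.05 for Hsp23, -0.23 to 0.03 for Hsp83 and -0.16 to 0.09 for DnaJ-1, and the tissue difference of Hsp68 on high sugar from -0.21 to 0.46. At the depth of Fat body-ND 4, 3 reads on 1 kb are worth 0.536 RPKM, so levels under that are not resolved there.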
